A study of Mus musculus with 3 samples.

Results

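The Slc25 family encodes the mitochondrial carriers, and its messenger RNAs were followed here through 3 pooled left ventricle libraries. Members were taken by symbol, as every gene listed as Slc25a followed by a number in any of the 3 deposited tables. This gave 40 of the 15503 genes listed, and all 40 were present in all 3 tables. A further 7 symbols of that form in the reference annotation were not analysed here. The rule used names alone and no measured value, though it was set with earlier results of these data known.

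Mitochondrial carriers are small proteins of the inner mitochondrial membrane, built from repeated pairs of membrane-spanning helices, which swap metabolites, nucleotides and ions between the cytosol and the matrix. In the heart they let newly made ATP out in exchange for ADP, bring in the phosphate that ATP synthase needs, move acylcarnitines towards beta-oxidation and carry the malate, oxoglutarate, aspartate and glutamate of the shuttle that brings reducing power into the matrix. A few members sit elsewhere, in peroxisomes or in the outer mitochondrial membrane.

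The libraries were made from C57BL6J mice, with ventricular RNA of 3 mice pooled for each of 3 genotypes before sequencing. The pool labelled Egln1/Hif2aTie2Cre carries Tie2Cre with floxed alleles of both Egln1 and Hif2a per its label, the Egln1Tie2Cre pool carries Tie2Cre with floxed Egln1, and the Egln1 floxed pool is the control without Cre. Egln1 encodes PHD2, the prolyl hydroxylase that marks hypoxia-inducible factors for destruction, and Hif2a is the protein of Epas1. The Tie2 promoter drives Cre in endothelial and blood-forming cells, and cardiomyocytes lie outside that lineage. The sources used here give neither age nor sex. Each genotype has 1 library, which leaves no spread to set a difference against, so p-values were not computed. Values are FPKM, fragments scaled by transcript length and by the mapped fragments of the library, which allow levels of different genes to be set side by side. Read counts and depth are unknown.

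The labels were checked first. Egln1 had 129 FPKM in the pool labelled Egln1/Hif2aTie2Cre, 95.7 FPKM in the Egln1Tie2Cre pool and 130 FPKM in the floxed pool, so it was lower than floxed in the Egln1Tie2Cre pool alone. Loss in the Tie2 lineage need not show in RNA of the whole ventricle, so these values cannot settle the label. Directions drawn from the pool labelled Egln1/Hif2aTie2Cre rest on that label. Epas1 had 54.5 FPKM in that pool, 65.0 FPKM in the Egln1Tie2Cre pool and 77.4 FPKM in the floxed pool. Of 6 cardiomyocyte markers, Tnnt2, Tnni3, Actc1, Pln and Myh6 lay between 1927 and 8947 FPKM in every pool. They did not go one way. Tnnt2, cardiac troponin T, had 8673 FPKM in the pool labelled Egln1/Hif2aTie2Cre, 8947 FPKM in the Egln1Tie2Cre pool and 7761 FPKM in the floxed pool. Myh6, the main myosin heavy chain of the adult mouse ventricle and a gene with a copy, had 4600 FPKM in the pool labelled Egln1/Hif2aTie2Cre, 3645 FPKM in the Egln1Tie2Cre pool and 6691 FPKM in the floxed pool. Ryr2, the calcium release channel, had 85.8 FPKM in the pool labelled Egln1/Hif2aTie2Cre and 145 FPKM in the floxed pool, and no value for it in the Egln1Tie2Cre pool was analysed here. All 6 endothelial markers examined were listed in each pool, with summed levels of 256, 247 and 223 FPKM in the pool labelled Egln1/Hif2aTie2Cre, the Egln1Tie2Cre pool and the floxed pool, and the liver and testis markers were not analysed here. Emcn differed most of the endothelial markers, at 44.8, 21.9 and 21.4 FPKM in that order of pools. Fibroblast markers summed to 409, 333 and 315 FPKM in the same order, a sum led by Dcn, while 3 of the 5 (Dpt, Pdgfra and Lum) were below floxed in the Egln1Tie2Cre pool and the median log2 ratio of the list there was -0.37. Summed in the same order, smooth muscle and pericyte markers came to 299, 246 and 255 FPKM, and 4 macrophage markers to 82.3, 48.7 and 65.2 FPKM. Acta2 moved most in the smooth muscle sum, at 90.6, 51.4 and 64.1 FPKM. Myh11 and Pdgfrb were instead below floxed in both Cre pools. C1qa moved most in the macrophage sum, at 60.3, 28.5 and 42.1 FPKM. Cd68, Csf1r and Mrc1 lay between 4.19 and 10.8 FPKM in every pool. The neutrophil genes S100a8 and S100a9 summed to 9.62, 54.6 and 1.96 FPKM, so the Egln1Tie2Cre pool stood apart in them. Ly6g and Mpo, the other 2 of the 4 neutrophil markers chosen, were not analysed here. Of 4 brown adipocyte markers, Ucp1 and Elovl3 were not analysed here. The other 2, Cidea and Dio2, summed to 20.96, 30.6 and 19.5 FPKM, of which Cidea alone had 20.5, 29.1 and 19.1 FPKM. White adipocyte genes, 2 of 3 chosen, summed to 1.24, 0.812 and 0.281 FPKM. The part of other cell types in the carrier values was not tested. In bulk tissue, fewer cells of a type and less RNA per cell cannot be told apart.

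Carrier expression was very uneven. Slc25a4, the adenine nucleotide translocator of heart and skeletal muscle, and Slc25a3, the phosphate carrier, were far above the rest, and together they made up 78.3% of the summed FPKM of the family in the pool labelled Egln1/Hif2aTie2Cre, 80.8% in the Egln1Tie2Cre pool and 74.96% in the floxed pool. A further 3 members averaged at least 100 FPKM, 17 between 10 and 100, 2 between 5 and 10, 15 between 1 and 5, and 1 under 1. The median member had 10.8 FPKM in the pool labelled Egln1/Hif2aTie2Cre, 10.5 FPKM in the Egln1Tie2Cre pool and 11.01 FPKM in the floxed pool, against a median over all listed genes of 5.05, 5.36 and 5.23 FPKM in the same order of pools. The order of the top 4 was the same in every pool, namely Slc25a4, Slc25a3, Slc25a11 and Slc25a5.

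**Figure D1:**
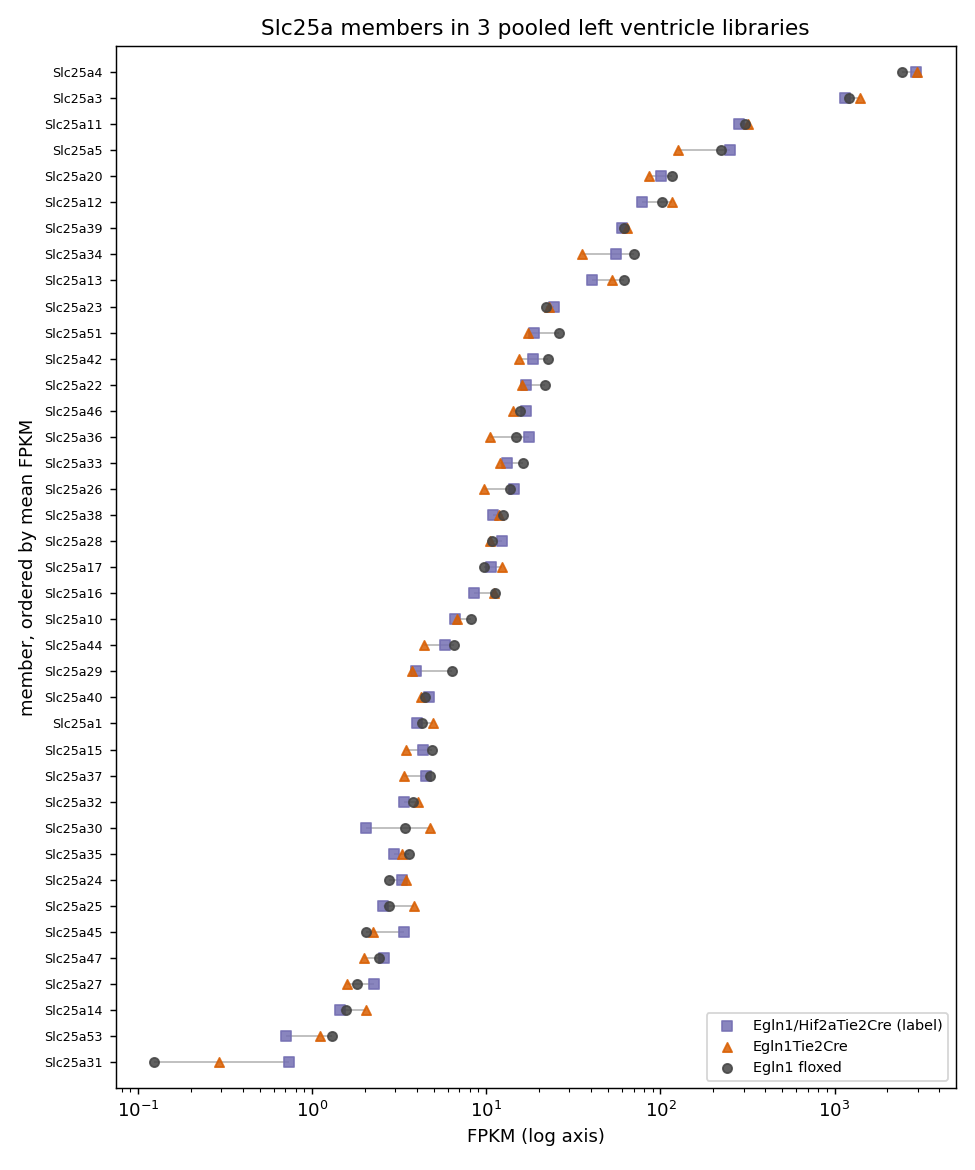
FPKM on a log axis of 39 Slc25a members in each pooled library, ordered by mean, with 1 point per library and a grey line from the lowest to the highest library. Levels run from 2991 FPKM for Slc25a4 in the Egln1Tie2Cre pool down to 0.123 FPKM for Slc25a31 in the floxed pool, and the libraries of most members lie close together, with the widest gaps at Slc25a31 and Slc25a30.

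Between genotypes most members differed little. Of the 40, 38 lay within 2-fold over all 3 libraries and 29 within 1.5-fold. The exceptions at 2-fold were Slc25a30, a carrier resembling the uncoupling proteins, and Slc25a31, the germ-cell adenine nucleotide translocator. The Egln1Tie2Cre pool held the lowest value of the 3 libraries for 18 members, the pool labelled Egln1/Hif2aTie2Cre for 15 and the floxed pool for 7. The highest value lay in the floxed pool for 16 members, and in each of the other pools for 12. None of these counts was made over all genes, so they describe the members and do not set the family apart.

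For counts of differing members, a log2 ratio of FPKM + 1 was used, with genes kept where the pair of libraries averaged at least 1 FPKM, and a gene was counted at 1.5-fold or more. The added 1 makes ratios of weakly expressed genes smaller than their plain FPKM ratios. Egln1Tie2Cre over floxed kept 39 members, of which 0 were higher, against 9.46% of all 11978 genes, and 3 (Slc25a34, Slc25a5 and Slc25a29) were lower, against 8.73% of all genes. A share of 7.69% of members lower is thus close to the background of the whole table. Above the floxed value lay 15 of the 39 members (38.5%), against 51.9% of all genes kept, and the median log2 ratio was -0.10, against 0.02 over all genes kept. The pool labelled Egln1/Hif2aTie2Cre over floxed kept 38 members, with 0 higher (background 4.42%) and 1 lower, Slc25a13 (background 3.28%). Its median was -0.08, against 0.00 over all genes, with 14 of 38 members (36.8%) above 0, against 49.4% of all genes. The pool labelled Egln1/Hif2aTie2Cre over Egln1Tie2Cre kept 38 members, with 3 higher, Slc25a5, Slc25a36 and Slc25a34 (background 9.67%), and 1 lower, Slc25a30 (background 9.64%). Its median was 0.09, against -0.02 over all genes, with 21 of 38 members (55.3%) above 0, against 47.5% of all genes. These 3 comparisons share libraries and are not independent of each other. No member reached 2-fold on this scale in any comparison, against backgrounds of 3.93% higher and 3.84% lower for Egln1Tie2Cre over floxed, 0.538% and 0.437% for the pool labelled Egln1/Hif2aTie2Cre over floxed, and 4.31% and 4.08% for the pool labelled Egln1/Hif2aTie2Cre over Egln1Tie2Cre. In the authors' deposited tables the q-value of every member was 0.9996 in each comparison. That shared value comes from 1 library per genotype and does not tell the members apart. The q-values of all genes were not summarised here, so it is no evidence that the family was unchanged.

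**Figure D2:**
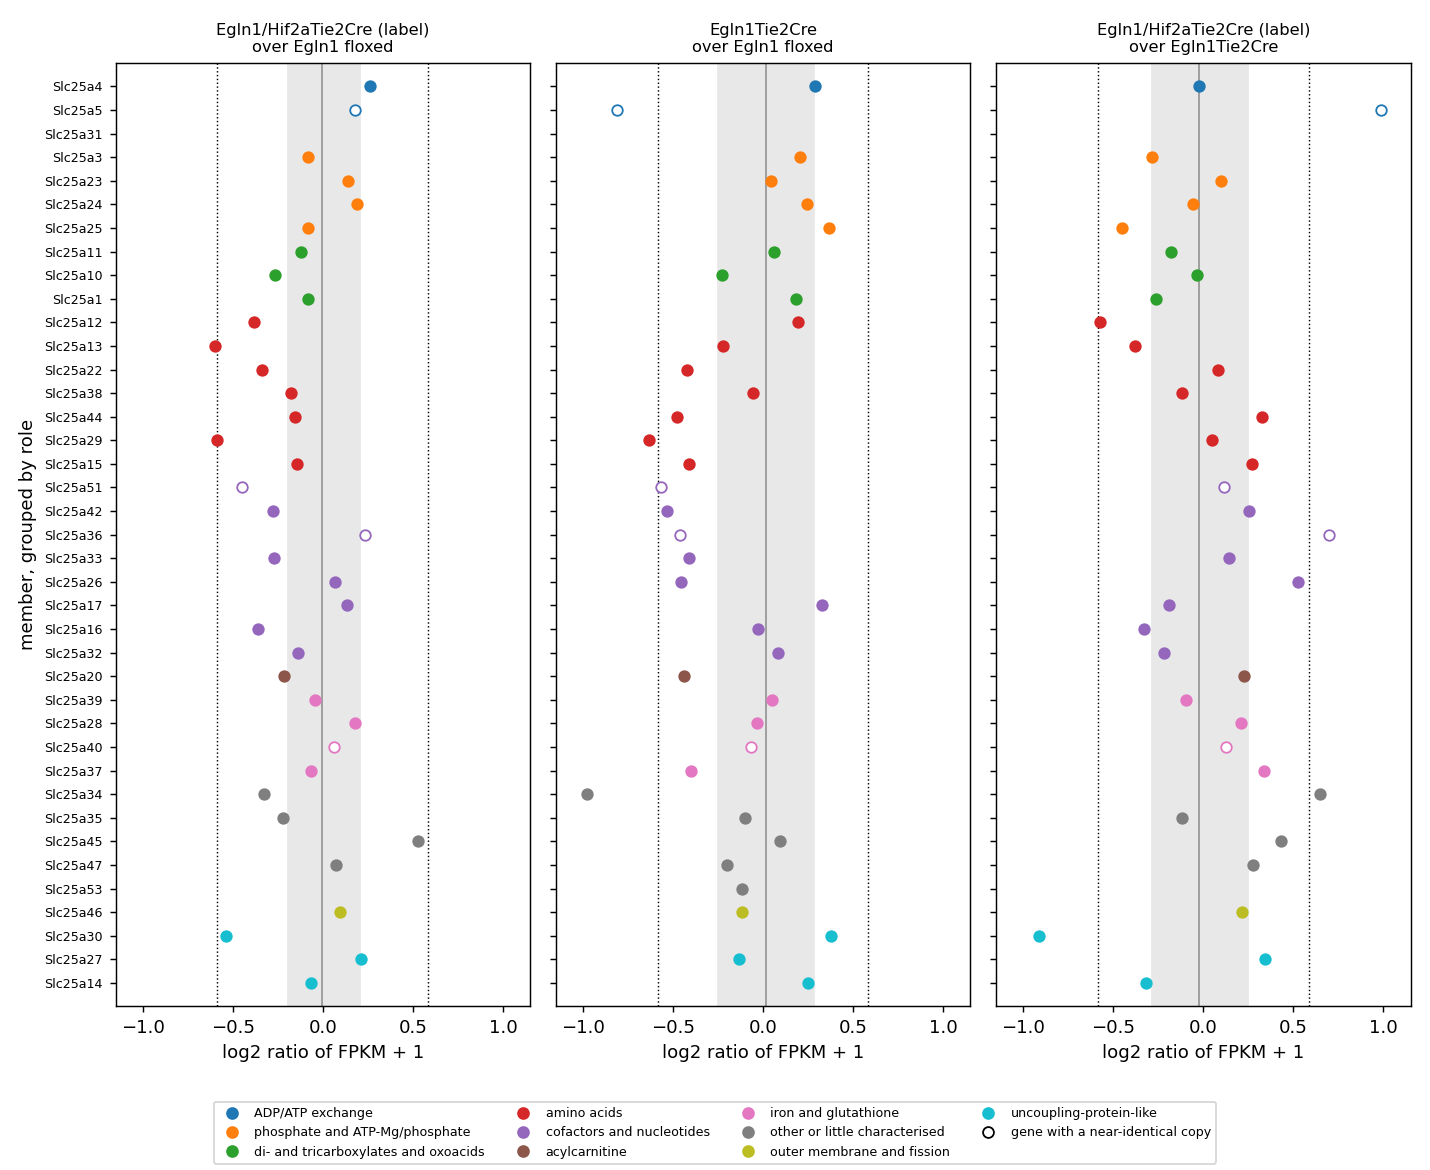
Log2 ratio of FPKM + 1 for the kept ones of the 39 members plotted, in the 3 comparisons, grouped by role and coloured by it, with open circles for the 4 members that have a near-identical copy. The grey band spans the middle part of all genes (lower to upper quartile), the grey line is the median of all genes and dotted lines mark 1.5-fold. The amino acid carriers lie to the left of 0 for all 7 members in the pool labelled Egln1/Hif2aTie2Cre over floxed, and Slc25a34 and Slc25a5 lie farthest left in Egln1Tie2Cre over floxed.

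The adenine nucleotide translocators export ATP from the matrix and import ADP. Slc25a4 had 2939 FPKM in the pool labelled Egln1/Hif2aTie2Cre, 2991 FPKM in the Egln1Tie2Cre pool and 2447 FPKM in the floxed pool. Both Cre pools were thus above the floxed pool, by 1.20-fold and 1.22-fold. Slc25a5, the isoform of most other tissues and of dividing cells, had 251 FPKM in the pool labelled Egln1/Hif2aTie2Cre, 126 FPKM in the Egln1Tie2Cre pool and 222 FPKM in the floxed pool. The Egln1Tie2Cre pool alone was low, 1.76-fold under floxed (log2 ratio -0.81), while the pool labelled Egln1/Hif2aTie2Cre was 1.99-fold over Egln1Tie2Cre. Slc25a4 accordingly made up 92.1% of the FPKM of the pair in the pool labelled Egln1/Hif2aTie2Cre, 96.0% in the Egln1Tie2Cre pool and 91.7% in the floxed pool. The germ-cell isoform Slc25a31 had 0.737 FPKM, 0.291 FPKM and 0.123 FPKM in the same order of pools, too low to be kept in any comparison.

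Slc25a5 is a gene with near-identical copies, which bears on how its reads are assigned. A search of the GENCODE M21 transcripts (GRCm38) with coding sequences found 7 processed pseudogenes that match at least 50% of its coding sequence at 90% identity or more, and none of the 7 was analysed here. The closest, Gm5560 on chromosome 5, matched Slc25a5 (chromosome X, 36795651 to 36798807, plus strand) at 875 of 892 aligned coding bases, while the related carrier Slc25a4 (chromosome 8, 46206797 to 46211284, minus strand) matched at 701 of 883. The first 120 coding bases show how little separates a read of the gene from a read of the copy; capitals mark bases that differ from Slc25a5, of which there are 2 in Gm5560 and 26 in Slc25a4.
Slc25a5: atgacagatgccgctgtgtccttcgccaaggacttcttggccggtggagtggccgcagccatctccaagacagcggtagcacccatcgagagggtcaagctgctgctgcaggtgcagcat
Gm5560: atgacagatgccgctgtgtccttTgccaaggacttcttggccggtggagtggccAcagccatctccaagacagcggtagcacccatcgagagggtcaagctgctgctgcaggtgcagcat
Slc25a4: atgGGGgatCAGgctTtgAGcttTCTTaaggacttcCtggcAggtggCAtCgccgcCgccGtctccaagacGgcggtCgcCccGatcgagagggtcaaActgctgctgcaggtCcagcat

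Across the table, coding genes with such a copy were lower in the Egln1Tie2Cre pool as a class. Of 1341 coding genes with a copy, 33.5% were at least 1.5-fold lower than floxed and 6.19% higher, with a median log2 ratio of -0.23, whereas of 9824 coding genes without one 5.1% were lower and 7.73% higher, with a median of 0.03. Annotated pseudogenes went the other way, with 78.5% of 256 higher, 10.2% lower and a median log2 ratio of 3.58. The filter favours a high share here, and how much of the share comes from it was not tested. A pseudogene under 1 FPKM in floxed was kept only if it was above that in Egln1Tie2Cre. The same filter in the pool labelled Egln1/Hif2aTie2Cre over floxed kept 107 pseudogenes, with 12.1% higher and 22.4% lower. For the 1360 coding genes with a copy in that comparison, the shares were 9.78% higher and 1.25% lower. The part of the shift in genes with a copy in the Slc25a5 value was not tested. The other members with a copy were Slc25a36, Slc25a40 and Slc25a51, with 1 copy each, and leaving all 4 out gives 2 members lower of 35 in Egln1Tie2Cre over floxed (background 5.1%). For the pool labelled Egln1/Hif2aTie2Cre over floxed it gives 0 higher and 1 lower of 34 (backgrounds 3.15% and 3.1%), and for the pool labelled Egln1/Hif2aTie2Cre over Egln1Tie2Cre 1 higher and 1 lower of 34 (backgrounds 5.31% and 8.21%). In that last comparison 37.6% of the 1340 coding genes with a copy were higher, a class that holds Slc25a5 and Slc25a36.

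The phosphate carriers supply ATP synthase and set the adenine nucleotide content of the matrix. Slc25a3, the phosphate carrier, had 1143 FPKM in the pool labelled Egln1/Hif2aTie2Cre, 1395 FPKM in the Egln1Tie2Cre pool and 1209 FPKM in the floxed pool. Its highest library was thus 1.22-fold over its lowest. The ATP-Mg/phosphate carriers, which respond to calcium, were far lower. Slc25a23 had 24.5 FPKM, 22.9 FPKM and 22.1 FPKM in the pool labelled Egln1/Hif2aTie2Cre, the Egln1Tie2Cre pool and the floxed pool. Slc25a24 and Slc25a25 lay between 2.54 and 3.83 FPKM in all libraries, and their highest library was Egln1Tie2Cre. All 4 kept members of this group were above the floxed value in the Egln1Tie2Cre pool, with log2 ratios between 0.05 and 0.37, and none of the 4 reached 1.5-fold. Of all genes kept, 51.9% were above floxed there. In the pool labelled Egln1/Hif2aTie2Cre, 2 of the 4 members were above and 2 below floxed. Slc25a25 shares exon sequence with a coding gene on the opposite strand, and whether the counting used strand is not stated in these sources.

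Slc25a11, the oxoglutarate carrier of the malate-aspartate shuttle, had 282 FPKM in the pool labelled Egln1/Hif2aTie2Cre, 319 FPKM in the Egln1Tie2Cre pool and 307 FPKM in the floxed pool. It was the third member by level and among the steadiest, with 1.13-fold between extremes, although it also overlaps a coding gene on the other strand. Slc25a10, the dicarboxylate carrier, had 6.59 FPKM, 6.79 FPKM and 8.13 FPKM in the same order, so both Cre pools were below floxed. Slc25a1, the citrate carrier that feeds lipid synthesis, had 3.97 FPKM, 4.96 FPKM and 4.25 FPKM. All 3 members of this group were below floxed in the pool labelled Egln1/Hif2aTie2Cre, by log2 ratios of -0.27 to -0.08. Of all genes kept in that comparison, 49.4% were above floxed.

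The amino acid carriers lay mostly below floxed. In the pool labelled Egln1/Hif2aTie2Cre all 7 were below the floxed pool, with a median log2 ratio of -0.34, and in the Egln1Tie2Cre pool 6 of 7 were, with a median of -0.41. Over all genes these medians were 0.00 and 0.02. Both comparisons use the same floxed library, and 1 member was past 1.5-fold in each.

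Slc25a12 (aralar) and Slc25a13 (citrin) exchange matrix aspartate for cytosolic glutamate and are stimulated by calcium. Slc25a12 had 78.3 FPKM in the pool labelled Egln1/Hif2aTie2Cre, 117 FPKM in the Egln1Tie2Cre pool and 102 FPKM in the floxed pool. It was lowest in the pool labelled Egln1/Hif2aTie2Cre, 1.496-fold under Egln1Tie2Cre in plain FPKM and just under the threshold on the FPKM + 1 scale (log2 ratio -0.57). Slc25a13 had 40.3 FPKM, 52.7 FPKM and 61.6 FPKM in the same order of pools. Both Cre pools were below floxed, and the pool labelled Egln1/Hif2aTie2Cre was 1.53-fold lower in plain FPKM, with a log2 ratio of FPKM + 1 of -0.60. It was the only kept member past 1.5-fold against floxed there on the FPKM + 1 scale, and in plain FPKM Slc25a29, Slc25a30 and Slc25a45 were past it too. That count falls to 0 once ratios are centred on coding genes without a copy. Together the pair summed to 119 FPKM in the pool labelled Egln1/Hif2aTie2Cre, 170 FPKM in the Egln1Tie2Cre pool and 164 FPKM in the floxed pool. The share of Slc25a12 in that sum was 66.0%, 68.9% and 62.4% in the same order.

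Slc25a29, a carrier of basic amino acids, had 3.92 FPKM in the pool labelled Egln1/Hif2aTie2Cre, 3.76 FPKM in the Egln1Tie2Cre pool and 6.38 FPKM in the floxed pool. Both Cre pools were low and close to each other. Egln1Tie2Cre was 1.70-fold under floxed (log2 ratio -0.63), and the pool labelled Egln1/Hif2aTie2Cre was 1.63-fold under it, at a log2 ratio of -0.58 just short of the threshold. Slc25a22, the glutamate carrier, had 17.0 FPKM, 15.98 FPKM and 21.7 FPKM in the same order of pools and was likewise lower in both Cre pools. Slc25a44, which carries branched-chain amino acids, had 5.76 FPKM, 4.39 FPKM and 6.51 FPKM, with Egln1Tie2Cre 1.48-fold under floxed. Slc25a15, the ornithine carrier, ranged from 3.44 FPKM in the Egln1Tie2Cre pool to 4.89 FPKM in the floxed pool. Slc25a38, which brings glycine into the matrix for heme synthesis, was steadier at 10.8 FPKM in the pool labelled Egln1/Hif2aTie2Cre, 11.9 FPKM in the Egln1Tie2Cre pool and 12.4 FPKM in the floxed pool.

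Slc25a20 is the carnitine-acylcarnitine carrier, the step between the carnitine palmitoyltransferases of the outer and inner membranes. It had 101 FPKM in the pool labelled Egln1/Hif2aTie2Cre, 86.2 FPKM in the Egln1Tie2Cre pool and 117 FPKM in the floxed pool. Both Cre pools were lower than floxed, and Egln1Tie2Cre was the lower of them, at 1.36-fold. Its partner enzyme Cpt2, which rebuilds acyl-CoA in the matrix, had 92.2 FPKM, 49.2 FPKM and 107 FPKM in the same order, so it was 2.18-fold under floxed in the Egln1Tie2Cre pool, and no copy of it was found. Cpt1b, the muscle enzyme on the outer membrane, had 217 FPKM, 244 FPKM and 228 FPKM and differed little. Crat, carnitine acetyltransferase, had 111 FPKM, 120 FPKM and 156 FPKM, lower in both Cre pools and short of 1.5-fold.

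Iron enters the matrix through the mitoferrins. Slc25a28 (mitoferrin 2), the form of tissues outside the red cell lineage, had 12.4 FPKM in the pool labelled Egln1/Hif2aTie2Cre, 10.5 FPKM in the Egln1Tie2Cre pool and 10.8 FPKM in the floxed pool. Slc25a37 (mitoferrin 1), the form of red cell precursors, had 4.51 FPKM, 3.36 FPKM and 4.75 FPKM in the same order. Slc25a28 was thus 73.3%, 75.8% and 69.5% of the pair. The erythroid enzyme Alas2 was high in another library than Slc25a37, at 2.74 FPKM, 9.41 FPKM and 3.9998 FPKM. The 5 listed erythroid markers summed to 400, 510 and 550 FPKM in that order. Against floxed in the Egln1Tie2Cre pool they did not go one way, with 2 higher (Alas2 and Hbb-bs) and 3 lower. Hba-a2 had 22.4 FPKM in the Egln1Tie2Cre pool against 108 FPKM in floxed, and Hbb-bt 8.45 against 52.2 FPKM. The 4 markers besides Alas2 have a copy, a class that was lower in the Egln1Tie2Cre pool. The part of blood cells in the Slc25a37 value was not tested. Slc25a39, which imports glutathione, had 59.9 FPKM in the pool labelled Egln1/Hif2aTie2Cre, 64.0 FPKM in the Egln1Tie2Cre pool and 61.7 FPKM in the floxed pool. It varied least of all 40 members, with 1.07-fold between its extremes. Its relative Slc25a40 lay between 4.22 and 4.70 FPKM.

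The carriers of cofactors and nucleotides gave 9 kept members, of which 6 were below floxed in the Egln1Tie2Cre pool (median log2 ratio -0.41) and 5 in the pool labelled Egln1/Hif2aTie2Cre (median -0.14). Over all genes kept the medians were 0.02 and -0.004 in that order. Slc25a51, which brings NAD into the matrix, had 18.8 FPKM in the pool labelled Egln1/Hif2aTie2Cre, 17.3 FPKM in the Egln1Tie2Cre pool and 26.1 FPKM in the floxed pool. Both Cre pools were low, Egln1Tie2Cre by 1.51-fold in plain FPKM and just under the threshold on the FPKM + 1 scale (log2 ratio -0.56), and the gene has a copy. Slc25a42, the coenzyme A carrier, had 18.6 FPKM, 15.4 FPKM and 22.7 FPKM, with Egln1Tie2Cre 1.47-fold under floxed. The pyrimidine nucleotide carriers differed in pattern. Slc25a33 had 13.2 FPKM in the pool labelled Egln1/Hif2aTie2Cre, 11.9 FPKM in the Egln1Tie2Cre pool and 16.1 FPKM in the floxed pool. Slc25a36 had 17.7 FPKM, 10.5 FPKM and 14.9 FPKM in the same order. Slc25a36 was 1.68-fold higher in the pool labelled Egln1/Hif2aTie2Cre than in the Egln1Tie2Cre pool (log2 ratio 0.70) and has a copy on chromosome 2.

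Slc25a26, which imports S-adenosylmethionine for methylation in the matrix, had 14.4 FPKM in the pool labelled Egln1/Hif2aTie2Cre, 9.68 FPKM in the Egln1Tie2Cre pool and 13.6 FPKM in the floxed pool. Egln1Tie2Cre was the low pool here, 1.41-fold under floxed. Slc25a17, the peroxisomal carrier, had 10.7 FPKM, 12.4 FPKM and 9.64 FPKM in the same order, above floxed in each Cre pool. Slc25a16, tied to coenzyme A supply, had 8.54 FPKM in the pool labelled Egln1/Hif2aTie2Cre, 10.99 FPKM in the Egln1Tie2Cre pool and 11.2 FPKM in the floxed pool. Slc25a32, the folate and FAD carrier, lay between 3.36 and 4.07 FPKM.

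**Figure D3:**
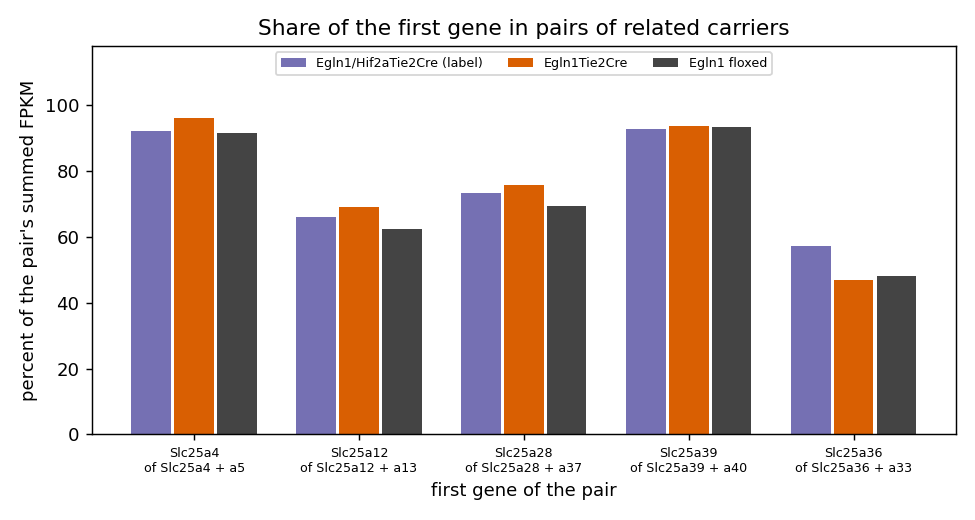
Share of the first named gene in the summed FPKM of 5 pairs of related carriers, as bars from 0 for each pooled library. Slc25a4 is 96.0% of its pair in the Egln1Tie2Cre pool against 91.7% in the floxed pool, Slc25a12 is 68.9% against 62.4%, and Slc25a36 is 57.2% of its pair in the pool labelled Egln1/Hif2aTie2Cre against 48.0% in the floxed pool.

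Slc25a34, whose transported substrate is little characterised, had the largest log2 ratio of the members kept in Egln1Tie2Cre over floxed. It had 55.9 FPKM in the pool labelled Egln1/Hif2aTie2Cre, 35.2 FPKM in the Egln1Tie2Cre pool and 70.3 FPKM in the floxed pool. Both Cre pools were below floxed and Egln1Tie2Cre was the lowest, at 2.00-fold under floxed in plain FPKM (log2 ratio -0.98), with the pool labelled Egln1/Hif2aTie2Cre 1.59-fold over Egln1Tie2Cre. The gene (chromosome 4, 141618824 to 141623821, minus strand) has no copy by the search and shares no exon base with another annotated gene. Its relative Slc25a35 had 2.92 FPKM, 3.26 FPKM and 3.57 FPKM in the same order of pools.

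The members resembling uncoupling proteins were weakly expressed. Slc25a30 had 2.04 FPKM in the pool labelled Egln1/Hif2aTie2Cre, 4.74 FPKM in the Egln1Tie2Cre pool and 3.42 FPKM in the floxed pool. It was on opposite sides of floxed in the Cre pools, and the pool labelled Egln1/Hif2aTie2Cre was 2.32-fold under Egln1Tie2Cre in plain FPKM (log2 ratio -0.91). Slc25a14 had 1.44 FPKM, 2.04 FPKM and 1.56 FPKM, in the same order of libraries as Slc25a30, and Slc25a27 had 2.26 FPKM, 1.57 FPKM and 1.81 FPKM, with the order turned round. The uncoupling proteins proper belong to the family under other symbols. Ucp3, the muscle form, had 16.2 FPKM in the pool labelled Egln1/Hif2aTie2Cre, 11.2 FPKM in the Egln1Tie2Cre pool and 20.9 FPKM in the floxed pool, so Egln1Tie2Cre was 1.87-fold under floxed (log2 ratio -0.85). Ucp2, found in many tissues and in immune cells, had 47.0 FPKM, 60.2 FPKM and 57.1 FPKM in the same order, and overlaps a coding gene on the other strand. Mtch1 and Mtch2, outer membrane relatives that insert proteins into that membrane, had 83.6 and 105 FPKM in the pool labelled Egln1/Hif2aTie2Cre, 103 and 108 FPKM in the Egln1Tie2Cre pool, and 72.8 and 84.6 FPKM in the floxed pool. Both were above floxed in each Cre pool and under 1.5-fold, and Mtch2 has a copy.

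Of the remaining members, Slc25a46, an outer membrane protein of mitochondrial dynamics, had 16.8 FPKM in the pool labelled Egln1/Hif2aTie2Cre, 14.3 FPKM in the Egln1Tie2Cre pool and 15.6 FPKM in the floxed pool. Slc25a45 had 3.37 FPKM, 2.24 FPKM and 2.03 FPKM in that order and was the highest of the 38 kept members against floxed in the pool labelled Egln1/Hif2aTie2Cre (log2 ratio 0.53), short of the threshold. Slc25a47, known as a liver carrier, lay between 1.97 and 2.59 FPKM, and Slc25a53 between 0.704 and 1.29 FPKM.

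Apart from their symbols, the members share a compact coding sequence. The longest coding transcript of 34 of the 40 had 800 to 1100 coding bases, with a median of 957 over the family. The 5 above 1300 were Slc25a12 (2031), Slc25a13 (2028), Slc25a25 (1542), Slc25a24 (1425) and Slc25a23 (1401), which are the carriers that bind calcium through an added amino-terminal domain. Members were spread over 18 chromosomes, and 12 shared exon sequence with another annotated gene, 5 of them with a coding gene (Slc25a11, Slc25a25, Slc25a26, Slc25a35 and Slc25a46).

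Promoter windows were read for the hypoxia response core, since the study concerns the oxygen-sensing pathway. RefSeq windows (GRCm38.p6) from 250 bases before to 50 bases after the start were matched by symbol for 31 of the 40 members, giving 40 windows. ACGTG or GCGTG, read on both strands, occurred in 24 of these windows (60%), against 43.8% of all 32851 windows, which were not matched for base composition. A CACGTG hexamer holds ACGTG on both strands. AAGGTCA, a core bound by nuclear receptors such as the estrogen-related receptors of heart muscle, occurred in 1 window (2.50%), that of Slc25a34, against 4.72% of all. The letters say nothing of binding. The 250 bases before the start are printed for Slc25a4, the most abundant member, and for the 3 members counted as lower in Egln1Tie2Cre over floxed, with any of these motifs in capitals. The positions are chr8:46211063-46211312 on the minus strand for Slc25a4, chrX:36795347-36795596 on the plus strand for Slc25a5, chr4:141623835-141624084 on the minus strand for Slc25a34 and chr12:108835877-108836126 on the minus strand for Slc25a29.
Slc25a4: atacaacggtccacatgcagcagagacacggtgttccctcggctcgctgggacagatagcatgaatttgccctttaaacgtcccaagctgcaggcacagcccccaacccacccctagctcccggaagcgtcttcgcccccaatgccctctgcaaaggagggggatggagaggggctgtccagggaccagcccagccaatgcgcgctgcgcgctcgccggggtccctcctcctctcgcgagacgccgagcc
Slc25a5: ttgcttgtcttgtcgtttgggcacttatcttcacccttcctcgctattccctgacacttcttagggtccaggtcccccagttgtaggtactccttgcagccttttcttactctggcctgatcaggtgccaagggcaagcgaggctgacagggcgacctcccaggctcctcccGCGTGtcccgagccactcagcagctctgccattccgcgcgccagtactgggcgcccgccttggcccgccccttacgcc
Slc25a34: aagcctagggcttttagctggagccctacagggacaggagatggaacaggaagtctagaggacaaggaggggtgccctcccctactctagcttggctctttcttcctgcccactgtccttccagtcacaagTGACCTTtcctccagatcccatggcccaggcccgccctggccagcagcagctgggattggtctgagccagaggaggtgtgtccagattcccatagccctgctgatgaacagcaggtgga
Slc25a29: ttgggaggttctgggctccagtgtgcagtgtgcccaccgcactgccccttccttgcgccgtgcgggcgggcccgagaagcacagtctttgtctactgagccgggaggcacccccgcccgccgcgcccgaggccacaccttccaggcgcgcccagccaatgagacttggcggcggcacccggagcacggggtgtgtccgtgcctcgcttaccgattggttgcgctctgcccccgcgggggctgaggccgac
In the printed bases of the 3 lower members, there was GCGTG in Slc25a5 alone and AAGGTCA (read on the other strand as TGACCTT) in Slc25a34 alone. The printed bases of Slc25a29 and Slc25a4 held none of the 3 motifs.

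Genes that work with the carriers were read from lists of partners. Over all 9 lists, 50 of 52 genes were listed, and in Egln1Tie2Cre over floxed 2 were at least 1.5-fold higher and 8 lower (backgrounds 9.46% and 8.73%). Of those 8, 7 have a near-identical copy, and Cpt2 was the exception. The pyruvate carrier gene Mpc1 had 293 FPKM in the pool labelled Egln1/Hif2aTie2Cre, 20.6 FPKM in the Egln1Tie2Cre pool and 254 FPKM in the floxed pool. Its partner subunit Mpc2 had 478 FPKM, 325 FPKM and 274 FPKM, so Egln1Tie2Cre was far under floxed for one subunit and above it for the other, and both genes have copies. The others lower in Egln1Tie2Cre with a copy were Vdac3, an outer membrane channel (58.6 against 211 FPKM in floxed), Tomm20, an import receptor (5.14 against 14.9 FPKM), Timm8a1, a chaperone for imported carriers (2.56 against 7.46 FPKM), Agk, a subunit of the carrier insertion complex (2.75 against 7.45 FPKM), Got2, the matrix aspartate aminotransferase (148 against 392 FPKM), and Iscu, the iron-sulfur scaffold (60.1 against 93.1 FPKM). The 2 higher were Alas2 and Hk1, a hexokinase that docks on mitochondria (90.3 FPKM in Egln1Tie2Cre against 59.7 FPKM in floxed). In the pool labelled Egln1/Hif2aTie2Cre over floxed, 2 partners were higher (background 4.42%), Mpc2 and Timm9, a small chaperone of carrier import (21.9 against 12.2 FPKM), and 1 was lower (background 3.28%), Alas1, the heme synthesis enzyme of most tissues (83.9 against 133 FPKM). In the pool labelled Egln1/Hif2aTie2Cre over Egln1Tie2Cre, 10 were higher (background 9.67%), 8 of them with a copy, namely Mpc1, Vdac3, Tomm20, Tomm22, Timm8a1, Agk, Got2 and Iscu, and the others Cpt2 and Timm9. Tomm22, another import receptor, had 85.1 FPKM in that pool against 48.4 FPKM in Egln1Tie2Cre. A further 4 were lower (background 9.64%), Alas2, Hk1, Alas1 and Got1, the cytosolic aspartate aminotransferase (329 against 501 FPKM).

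**Figure D4:**
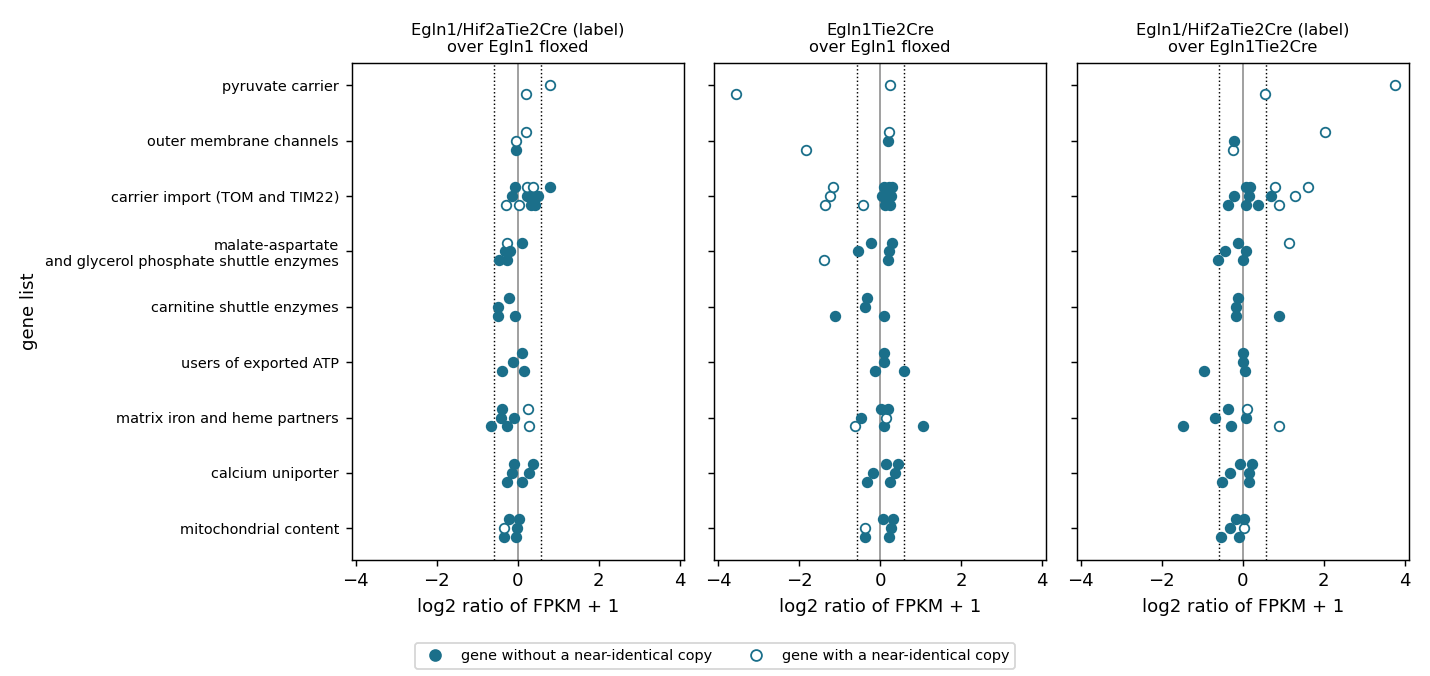
Log2 ratio of FPKM + 1 of the partner genes in 9 lists for the 3 comparisons, with 1 circle per gene, open where the gene has a near-identical copy, and dotted lines at 1.5-fold. In Egln1Tie2Cre over floxed the points far to the left are open circles, led by Mpc1 at -3.56 and Vdac3 at -1.83, and Cpt2 at -1.11 is the filled one past the line.

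The carrier import genes without a copy were close to floxed in Egln1Tie2Cre. Timm10, a chaperone of the intermembrane space, had 83.3 FPKM in the pool labelled Egln1/Hif2aTie2Cre, 79.4 FPKM in the Egln1Tie2Cre pool and 64.7 FPKM in the floxed pool, and Timm8b, the most abundant of the list, had 226 FPKM, 175 FPKM and 160 FPKM in the same order. Of the 12 listed import genes, 9 were above floxed in the pool labelled Egln1/Hif2aTie2Cre, with a median log2 ratio of 0.28 against 0.00 over all genes. The users of exported ATP were steady where they are most abundant. Ckmt2, mitochondrial creatine kinase, had 1432 FPKM, 1422 FPKM and 1334 FPKM, and Ckm, the cytosolic form, 1513 FPKM, 1455 FPKM and 1360 FPKM, in the same order of pools. Of the enzymes of the malate-aspartate shuttle, Mdh1 had 944 FPKM in the pool labelled Egln1/Hif2aTie2Cre, 1280 FPKM in the Egln1Tie2Cre pool and 1126 FPKM in the floxed pool. Got1 had 329 FPKM, 501 FPKM and 412 FPKM. Mdh2, the matrix form, had 877 FPKM, 954 FPKM and 817 FPKM. Both cytosolic enzymes were lowest in the pool labelled Egln1/Hif2aTie2Cre and highest in Egln1Tie2Cre, as Slc25a12 was. The channels Vdac1 and Vdac2 had 473 and 281 FPKM in the pool labelled Egln1/Hif2aTie2Cre, 553 and 333 FPKM in the Egln1Tie2Cre pool, and 484 and 287 FPKM in the floxed pool, under 1.5-fold throughout. Vdac2 has a copy.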

How the data were processed

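The authors deposited 3 tables, each setting a pair of pooled libraries side by side, with FPKM per gene for both and a q-value from their own comparison of those libraries, per the file headers. TopHat2 and Cuffdiff are named in the submitters' processing notes, without versions; the sources used here do not state the genome build, annotation release or strand setting. Columns were matched to pools through the sample titles in the table names, and values of the same pool recurring in the other table agreed within a relative 0.001 for all 14367 to 14489 shared genes. The FPKM were used as deposited. Log2 ratios used a pseudocount of 1 and a mean of at least 1 FPKM over the pair, and plain ratios are given beside FPKM values. With 1 library per genotype no test was run. Copies were searched with blastn 2.17.0 among GENCODE M21 transcripts, at 90% identity or more over at least 50% of the coding sequence of the longest coding transcript, so copies outside that annotation are missed. Members with a mean of at least 5 FPKM or at 1.5-fold in any comparison are given in every pool, and others by value or range. Of each partner list, genes at 1.5-fold in any comparison and the 2 highest by mean FPKM are named. The values of 1 member, which is counted in every total, are not reported here. The members, lists and thresholds were chosen with earlier results of these data known, and 2 alternatives were added after seeing the values. Tools were Python 3.11.15, pandas 2.3.3 and numpy 2.4.6.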

Additional observations from a re-analysis of the deposited data

How the results depend on the processing

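With 1 library per genotype, no alternative carries an error, and a median was taken as unchanged where it moved by less than 0.1 on the log2 scale. At a threshold of 2-fold every count of members, higher or lower, was 0 in each comparison. In Egln1Tie2Cre over floxed, the median of the members moved to -0.22 among the 25 with a mean of at least 5 FPKM, against 0.07 over all genes at that level. In the pool labelled Egln1/Hif2aTie2Cre over floxed, the 0 higher became 1 with a pseudocount of 0.1, with plain FPKM ratios (both Slc25a45) and with no filter (Slc25a31). The 1 lower became 3 with a pseudocount of 0.1 or plain ratios, joined by Slc25a29 and Slc25a30, and 0 when centred on coding genes without a copy. In the pool labelled Egln1/Hif2aTie2Cre over Egln1Tie2Cre, the 3 higher became 1 among genes without a copy, and the 1 lower became 2 with plain ratios and 0 at a mean of at least 5 FPKM. The cause was not tested beyond what each setting removes. No member counted at 1.5-fold changed direction under any pseudocount or centring tried. No paired analysis was possible because each genotype has a single pooled library. Depth is unknown, and weakly expressed members such as Slc25a31 and Slc25a53 are the least certain.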

Other observations

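The mitochondrial calcium uniporter, which lets calcium into the matrix where it acts on dehydrogenases, had 6 of 7 listed genes in the tables, and none reached 1.5-fold in any of the 3 comparisons. Over all genes, the shares higher or lower ran from 3.28% to 9.67%, so 6 genes are too few to read steadiness from. Smdt1, its essential small subunit, had 205 FPKM in the pool labelled Egln1/Hif2aTie2Cre, 185 FPKM in the Egln1Tie2Cre pool and 168 FPKM in the floxed pool. Micu2, a calcium-sensing gatekeeper, had 40.5 FPKM, 57.7 FPKM and 44.5 FPKM in the same order.

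Of the 6 genes taken for mitochondrial content, none reached 1.5-fold either, against the same shares over all genes (3.28% to 9.67%). Cs, citrate synthase, which has a copy, had 402 FPKM in the pool labelled Egln1/Hif2aTie2Cre, 395 FPKM in the Egln1Tie2Cre pool and 509 FPKM in the floxed pool. Esrra, the estrogen-related receptor alpha that drives genes of oxidative metabolism, had 79.1 FPKM, 88.6 FPKM and 76.7 FPKM in the same order.

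Slc25a31 differed most in plain FPKM, 6.01-fold between the pool labelled Egln1/Hif2aTie2Cre and the floxed pool, at a level that never exceeded 0.737 FPKM.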
